A study of Mus musculus with 8 samples.

Results

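This account follows 10 genes of the epidermal growth factor (EGF) system, chosen by symbol from the 29621 genes to which the deposited transcripts could be assigned. They are the 4 receptor genes Egfr, Erbb2, Erbb3 and Erbb4 and the 6 ligand genes Areg, Ereg, Hbegf, Tgfa, Btc and Epgn, and their symbols, not their values, selected them. Whole pancreas was taken after perfusion from C57BL/6 mice at postnatal day 42, and total RNA was sequenced after removal of ribosomal RNA. The 4 KPC samples carried p48-Cre, an oncogenic allele under the control of a lox-stop-lox cassette, and Trp53fl/fl, a p53 gene that Cre inactivates. The 4 KPC-OG samples carried those same 3 alleles and, in addition, R26tm1(LSL-OG), a Cre-dependent allele at the Rosa26 locus, and the labels do not say what OG stands for. The p48 (Ptf1a) promoter drives Cre in pancreatic progenitors and acinar cells, so the recombined alleles are those of pancreatic epithelium. The RNA came from the whole organ, with its stroma, immune cells and vessels. The comparison asks how the pancreas with the R26tm1(LSL-OG) allele differs from the one without it. Each group holds 4 libraries, and nothing in the labels says that each came from a separate mouse, so a p-value here reflects the scatter among libraries, which may in part be technical.

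The EGF ligands are made as membrane-anchored precursors, which proteases of the ADAM family cut free. A ligand brings receptors together in pairs: EGFR binds amphiregulin, TGF-alpha and EGF, both EGFR and ERBB4 bind HB-EGF, betacellulin and epiregulin, ERBB3 and ERBB4 bind the neuregulins, and ERBB2 has no known ligand and acts as the favoured partner of the others. In the pancreas, receptor signalling to the RAS, ERK and AKT pathways is known for its part in the change of acinar cells towards a duct-like state, and Tgfa is a classical driver of that change in mice.

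The KPC libraries held 7373286 to 11292570 estimated reads each, and the KPC-OG libraries 13671606 to 18292115. Expression between libraries is given as CPM (normalised read counts scaled to a common library total) after TMM scaling, which sets each gene against the typical gene of the library. The TMM factors were 0.483 to 0.653 in KPC and 1.14 to 2.28 in KPC-OG, so the scaling matters. Without those factors the median gene's log2 fold change moved from 0.09 to 1.82, a shift of 1.74. Each of the 8 tested members was then called higher in KPC-OG, Erbb4 included, as were 13078 of all 14267 tested genes. The acinar markers that define the tissue were all detected, but their summed level was 392600 to 643400 CPM in KPC and 56380 to 217700 CPM in KPC-OG, and 12 of the 14 were lower in KPC-OG. These CPM sums are not shares of a library. In the deposited TPM values, which are scaled within each library, the acinar sums were 269700 to 348800 in KPC and 158100 to 263200 in KPC-OG. KPC-OG 3 stands apart within its group, with the highest acinar sum, and the lowest sums of duct and lesion markers (1187 CPM, against 1979 to 2198 CPM in the other KPC-OG libraries and 643.5 to 876.2 CPM in KPC) and of fibroblast markers (1664 CPM). Markers of neighbouring organs were also higher in KPC-OG: the 8 liver markers summed to 58.6 to 69.5 CPM in KPC and 168.0 to 552.4 CPM in KPC-OG, with the highest sums in KPC-OG 2 and KPC-OG 3.

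Of the 10 members, 8 passed the filter on low counts, and 5 of these passed as higher in KPC-OG (adjusted p under 0.05, edgeR quasi-likelihood test, Benjamini-Hochberg adjustment), while none was lower. The 5 were the ligand genes Areg, Hbegf and Btc and the receptor genes Erbb2 and Erbb3. Over all 14267 tested genes, 17.4% were higher and 16.6% were lower by the same rule, 34.1% in all. The filter asked for about 0.824 CPM in at least 4 libraries, and Areg and Hbegf passed it through KPC-OG, since no KPC library reached that level for Areg and 3 did for Hbegf after scaling by total counts. Among the 6 members that reached it in all 4 KPC libraries, 3 were higher, namely Erbb2, Erbb3 and Btc. Egfr, Tgfa and Erbb4 did not pass the test, Ereg was not tested because of its low counts, and Epgn had no reads. In the GRCm38 annotation (GENCODE M21), Egfr and Erbb2 lie on chromosome 11 (16752203 to 16918158 and 98412470 to 98437716), Erbb3 on chromosome 10 (128567523 to 128589652), Erbb4 on chromosome 1 (68032186 to 69108059), Tgfa on chromosome 6 (86195223 to 86275719), Hbegf on chromosome 18 (36504927 to 36515805), and the other 4 together on chromosome 5. In bulk tissue such as this, fewer cells of a type and less RNA per cell cannot be told apart.

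**Figure D1:**
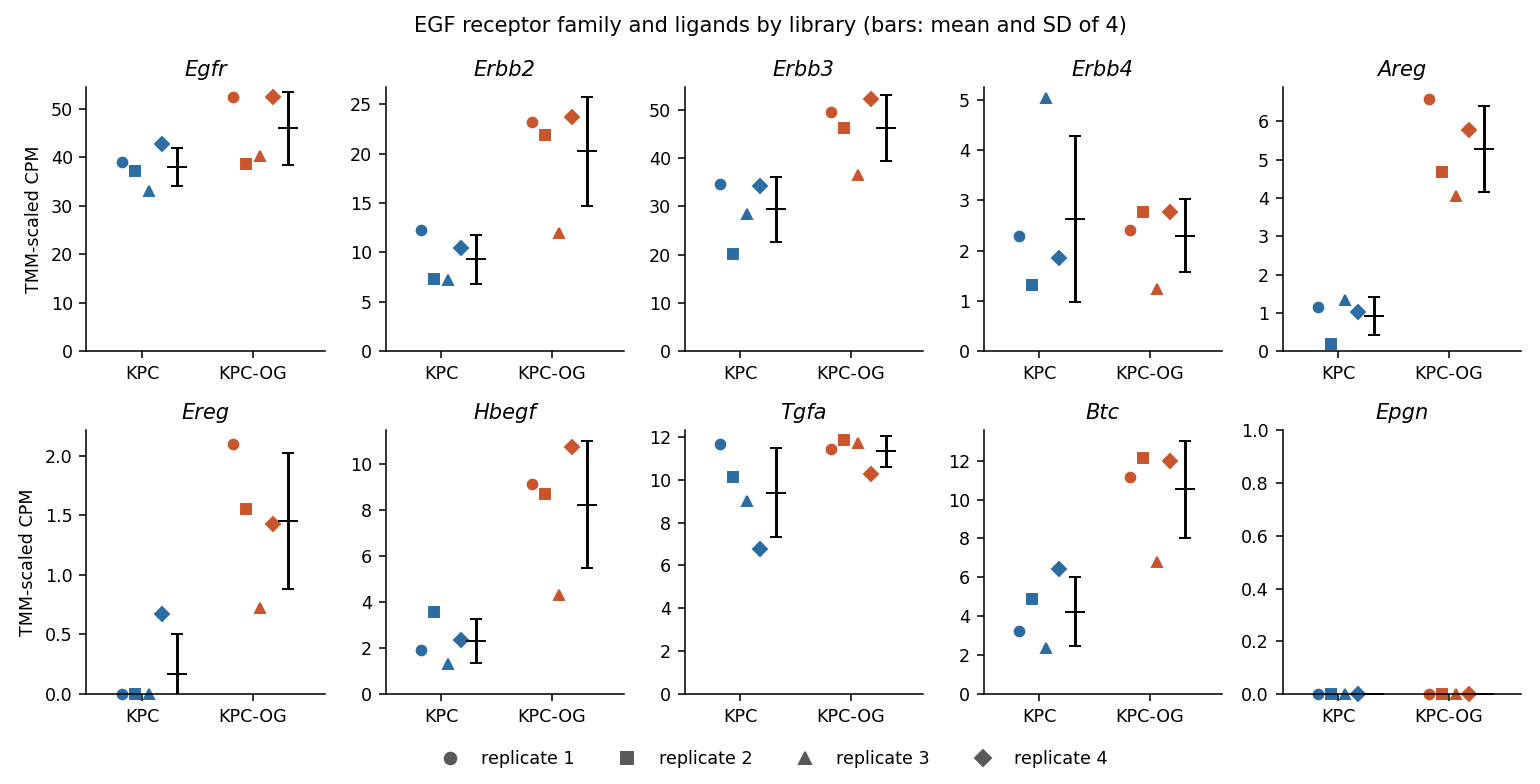
TMM-scaled CPM of each of the 10 genes (vertical axis, own scale per gene, starting at 0) in the 4 KPC (blue) and 4 KPC-OG (orange) libraries, with marker shapes for replicates 1 to 4 and black bars for mean and SD. Groups are separate for Erbb3, Areg, Ereg, Hbegf and Btc, KPC-OG 3 (triangle) is the lowest KPC-OG library for 7 genes, and Epgn is at 0 throughout.

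Among the receptors, Erbb2 showed the larger rise. Erbb2 encodes the ligandless receptor that pairs with the other 3. Its level was 12.22, 7.32, 7.16 and 10.47 CPM in KPC 1 to 4 and 23.23, 21.92, 11.98 and 23.73 CPM in KPC-OG 1 to 4. KPC-OG 1, 2 and 4 lay well above every KPC library, whereas KPC-OG 3 lay just below KPC 1, so the groups overlapped. The means were 9.30 ± 2.47 and 20.2 ± 5.54 CPM (SD, n = 4 each), and Erbb2 rose 2.17-fold, a log2 fold change of 1.12 ± 0.25 (SE) with adjusted p = 0.00791 (edgeR quasi-likelihood). Without KPC-OG 3 the log2 fold change was 1.31.

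Erbb3 encodes a receptor with almost no kinase activity of its own, which binds neuregulins and recruits PI3-kinase when paired. Its level was 34.57, 20.1, 28.39 and 34.28 CPM in KPC and 49.5, 46.23, 36.54 and 52.28 CPM in KPC-OG. All 4 KPC-OG libraries were above all 4 KPC libraries, KPC-OG 3 by the least. Erbb3 rose 1.57-fold, from 29.3 ± 6.78 to 46.1 ± 6.86 CPM, with a log2 fold change of 0.65 ± 0.19 and adjusted p = 0.0210 (edgeR quasi-likelihood). This call was lost without KPC 3, KPC-OG 1 or KPC-OG 4 (adjusted p = 0.0531 to 0.0594, edgeR), and on library sizes alone taken relative to the median gene (adjusted p = 0.161).

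Egfr, the receptor of most of these ligands, was at 38.96, 37.19, 33.17 and 42.72 CPM in KPC and 52.51, 38.69, 40.4 and 52.4 CPM in KPC-OG. KPC-OG 1 and KPC-OG 4 were above every KPC library, and KPC-OG 2 and KPC-OG 3 lay within the KPC range. The log2 fold change of 0.27 ± 0.15 did not pass the test (adjusted p = 0.171, edgeR quasi-likelihood), with means of 38.01 ± 3.97 and 46.0 ± 7.49 CPM. The call depended on the settings: Egfr passed when KPC-OG 2 and 3 were left out together (0.48, adjusted p = 0.0310, edgeR) and in TPM centred on each library's median (0.60 and 0.67 with pseudocounts of 0.1 and 1). TPM weighs reads by transcript length. The short Egfr-204 and Egfr-205 held 0% and 5.82% of the mean Egfr TPM in KPC. In KPC-OG they held 10.1% and 22.1%, on 92.2 and 120.3 estimated reads. The part of this in the centred TPM values was not tested.

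Erbb4, which binds neuregulins, betacellulin and HB-EGF, was the lowest receptor. It was at 2.29, 1.31, 5.04 and 1.86 CPM in KPC and 2.40, 2.77, 1.24 and 2.77 CPM in KPC-OG, on 48.9 and 297.7 estimated reads per group. The groups overlapped throughout, and KPC 3 was the highest library of all. The log2 fold change of -0.13 ± 0.43 did not pass the test (adjusted p = 0.846, edgeR quasi-likelihood), and its sign changed when KPC 3 or KPC-OG 3 was left out, within a range of -0.36 to 0.34 over single omissions.

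Areg showed the largest fold change among the tested members. It encodes amphiregulin, an EGFR ligand of epithelial and immune cells. Its level was 1.15, 0.188, 1.33 and 1.01 CPM in KPC and 6.57, 4.69, 4.06 and 5.78 CPM in KPC-OG. Every KPC-OG library was above every KPC library by a wide margin, and KPC 2 was the lowest, with about 1 read. Areg rose 5.86-fold, a log2 fold change of 2.55 ± 0.39 with adjusted p = 0.00147 (edgeR quasi-likelihood), from 0.918 ± 0.504 to 5.28 ± 1.12 CPM. The KPC level rests on 18.6 estimated reads over 4 libraries, against 653.3 in KPC-OG, so its size is imprecise. The call held in all 21 alternatives, with log2 fold changes from 1.43 to 4.33. Library sizes alone and TPM that was not centred leave out composition scaling, and called 12817 to 13078 of the 14267 tested genes higher. A higher call there therefore adds little, and the value of 4.33 came from library sizes alone.

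Hbegf encodes heparin-binding EGF-like growth factor, which binds EGFR and ERBB4. It was at 1.91, 3.57, 1.33 and 2.36 CPM in KPC and 9.13, 8.71, 4.32 and 10.75 CPM in KPC-OG. The groups did not overlap, and KPC-OG 3 lay nearest to KPC. Hbegf rose 3.53-fold, from 2.29 ± 0.951 to 8.23 ± 2.75 CPM, with a log2 fold change of 1.82 ± 0.35 and adjusted p = 0.00356 (edgeR quasi-likelihood), on 47.6 and 1063.8 estimated reads. The call held in all 21 alternatives, with limma-voom the closest to the threshold (adjusted p = 0.0499). Among these, library sizes alone and TPM that was not centred called most tested genes higher, so they add little.

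Btc encodes betacellulin, first found in a beta-cell tumour line and a ligand of EGFR and ERBB4. It was at 3.25, 4.88, 2.39 and 6.42 CPM in KPC and 11.14, 12.13, 6.81 and 12 CPM in KPC-OG. KPC-OG 3 was close to KPC 4, and the other KPC-OG libraries were far above, so that the groups did not overlap. Btc rose 2.44-fold, from 4.23 ± 1.79 to 10.5 ± 2.51 CPM, with a log2 fold change of 1.29 ± 0.29 and adjusted p = 0.00820 (edgeR quasi-likelihood). On library sizes alone relative to the median gene it missed the threshold (1.26, adjusted p = 0.0560, edgeR).

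Tgfa encodes TGF-alpha, an EGFR ligand. Its level was 11.65, 10.14, 9.02 and 6.75 CPM in KPC and 11.45, 11.84, 11.72 and 10.27 CPM in KPC-OG. The ranges overlapped, and the KPC-OG libraries lay close together. The log2 fold change of 0.27 ± 0.17 did not pass the test (adjusted p = 0.250, edgeR quasi-likelihood), with means of 9.39 ± 2.06 and 11.3 ± 0.719 CPM.

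Ereg encodes epiregulin, a ligand of EGFR and ERBB4. Reads were found in 1 KPC library, KPC 4, at 0.675 CPM (4.33 estimated reads), and the other 3 were at 0. All 4 KPC-OG libraries had reads, at 2.10, 1.56, 0.720 and 1.43 CPM, on 186.9 estimated reads in all. The groups did not overlap, but KPC 4 and KPC-OG 3 were nearly level. Ereg failed the filter on low counts, and with no filter its log2 fold change was 2.93 ± 0.88 (adjusted p = 0.0330, edgeR quasi-likelihood). The size is not settled, since it rests on the reads of KPC 4. Where leaving out a single library let Ereg past the filter, the log2 fold change was 2.47 to 2.58 without KPC 1, 2 or 3 (edgeR adjusted p = 0.0618 to 0.0697), 3.10 without KPC-OG 3 (0.0153) and 7.83 without KPC 4 (0.00971), and the last depends on the prior count because the other KPC libraries are at 0. Epgn encodes epigen, a ligand of EGFR, and had no reads in any library, which allows up to 0.148 CPM over the KPC group and 0.0249 CPM over the KPC-OG group (3 counts, counting error only).

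**Figure D2:**
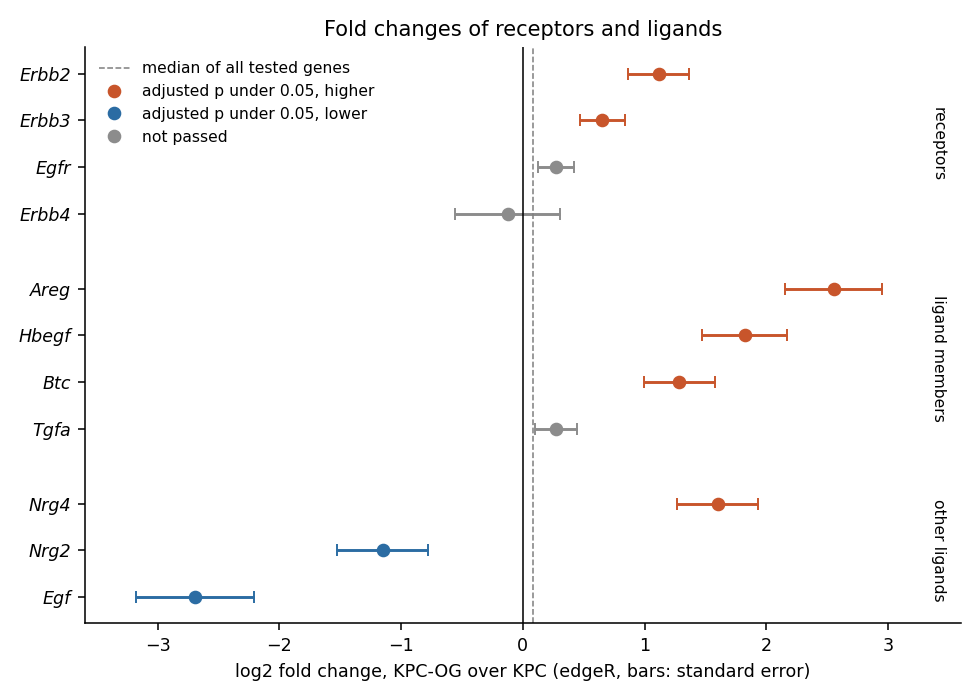
Log2 fold change of KPC-OG over KPC (horizontal axis, edgeR) with its standard error for the 8 tested members and for Egf, Nrg2 and Nrg4, coloured by direction where the adjusted p was under 0.05 and grey otherwise. The dashed line is the median of all tested genes (0.09), and the points run from Egf at -2.70 to Areg at 2.55.

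Groups that do not overlap, with KPC-OG above, were seen for 5 members, Erbb3, Areg, Ereg, Hbegf and Btc, against 17.6% of all tested genes, and none lay apart with KPC-OG below, against 17.0%. Ereg is not among the tested genes, and Areg and Hbegf passed the filter through KPC-OG. Of the 6 members that reached the filter minimum in all 4 KPC libraries, Erbb3 and Btc had separate groups. In 7 of the 9 members with reads, all except Egfr and Tgfa, KPC-OG 3 was the lowest library of its group. KPC-OG 3 was also the library with the least duct and fibroblast marker RNA and the most acinar marker RNA of its group, and the part of this in the members' values was not tested. The 5 calls held without KPC-OG 3, with log2 fold changes of 2.67 for Areg, 2.03 for Hbegf, 1.45 for Btc, 1.31 for Erbb2 and 0.76 for Erbb3, and Ereg was then called as well. Markers of other cell types moved with the same groups: 9 of 13 duct and lesion markers, 8 of 10 fibroblast and stellate markers and 10 of 11 macrophage and monocyte markers were higher in KPC-OG. So were 4 of the 5 tested intestine and stomach markers, whose sums were 9.39 to 23.5 CPM in KPC and 68.7 to 128.5 CPM in KPC-OG (6.51-fold higher), and 3 of the 4 tested liver markers (5.25-fold higher in sum). Fibroblast markers summed to 993.5 to 1327 CPM in KPC and 1664 to 4728 CPM in KPC-OG, and macrophage markers to 234.0 to 451.0 and 779.9 to 1096 CPM. No listed marker of these types was at 0 in all 8 libraries. Which cells held the members' RNA was not tested.

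Levels of different genes can be compared only per transcript length, for which the deposited TPM values (transcript abundances per length within a library) were summed per gene. TPM values are not TMM-scaled, and nearly all genes stood higher in KPC-OG on that scale, so the order is read within each group. In KPC the order of mean TPM was Egfr (5.03 ± 0.494), Erbb3 (3.83 ± 0.553), Tgfa (1.78 ± 0.396), Erbb2 (1.58 ± 0.247), Btc (1.21 ± 0.532), Hbegf (0.796 ± 0.419), Areg (0.618 ± 0.340), Erbb4 (0.313 ± 0.285) and Ereg (0.0346 ± 0.0693). Egfr exceeded Erbb3 within each of the 4 KPC libraries although the ranges overlapped, and only Erbb3 and Tgfa had separate ranges among neighbours with reads. In KPC-OG the order was Egfr (26.1 ± 8.46), Erbb3 (19.6 ± 7.49), Erbb2 (11.7 ± 5.47), Areg (11.3 ± 4.35), Btc (9.54 ± 4.23), Hbegf (9.22 ± 4.75), Tgfa (6.60 ± 1.69), Erbb4 (1.13 ± 0.516) and Ereg (0.908 ± 0.435). Here Tgfa and Erbb4 had separate ranges, and Erbb2 was above Areg in 2 of 4 libraries, so those neighbours did not differ beyond their spread. The place of Egfr above Erbb3 in KPC-OG rests on transcripts of 446 to 716 bases with few reads. Egfr-203, Egfr-204 and Egfr-205 held 4.24%, 10.1% and 22.1% of the mean Egfr TPM there, on 26.6, 92.2 and 120.3 of 5594.4 estimated reads. In KPC they held 2.75%, 0% and 5.82%. The longer Egfr-201 and Egfr-202 together were below Erbb3 in every KPC-OG library.

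**Figure D3:**
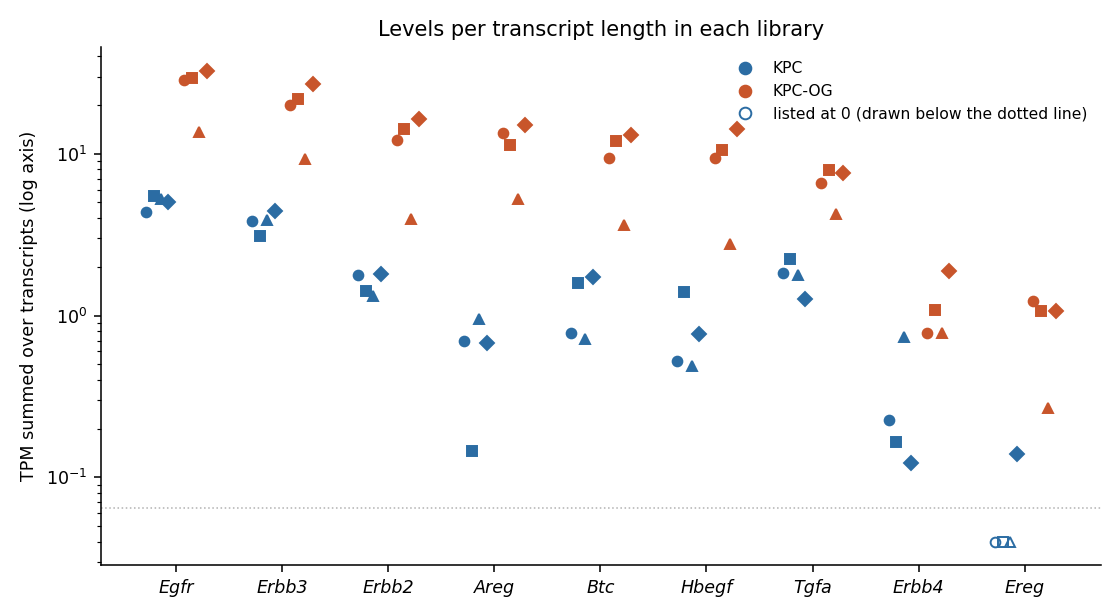
TPM summed over the transcripts of each gene (vertical log axis) in every library, KPC in blue and KPC-OG in orange, genes ordered by their KPC-OG mean, with open symbols below the dotted line for libraries listed at 0. By mean TPM, Egfr and Erbb3 lead in both groups, and Tgfa moves from ahead of the other ligands in KPC to behind Areg, Btc and Hbegf in KPC-OG. Single libraries differ: Btc is above Tgfa in KPC 4, and Tgfa is above Btc and Hbegf in KPC-OG 3.

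The make-up of the ligand RNA differed between the groups. Tgfa held 47.9%, 41.5%, 45.1% and 27.6% of the summed TPM of the 6 ligand genes in KPC 1 to 4 and 16.4%, 18.6%, 26.2% and 14.8% in KPC-OG 1 to 4. Areg held 18.2%, 2.70%, 24.2% and 14.7% in KPC and 33.6%, 26.3%, 32.4% and 29.7% in KPC-OG. Neither share overlapped between the groups. Of the summed receptor TPM, Egfr held 42.7% to 53.9% in KPC and 41.7% to 49.4% in KPC-OG, and Erbb3 30.5% to 39.1% and 32.5% to 34.7%, with overlapping groups. Erbb2 held 17.4%, 14.0%, 11.7% and 15.9% in KPC and 19.7%, 21.5%, 14.3% and 21.1% in KPC-OG, where KPC-OG 1, 2 and 4 lay above every KPC library and KPC-OG 3 within their range. Ligand TPM came to at most 52.8% of receptor TPM in KPC and at least 58.4% in KPC-OG, without overlap. These shares are descriptions of the libraries and were given no test. The summed receptor TPM includes the short Egfr transcripts named above, which held more of the Egfr TPM in KPC-OG than in KPC.

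Ratios within a library are free of the scaling between libraries, except that a fixed pseudocount weighs more where TPM is low. They also follow the transcript mix: short transcripts with few reads held more of the Egfr TPM in KPC-OG, which lowers ratios to Egfr there. By edgeR the log2 fold changes were 0.27 for Egfr, 0.65 for Erbb3 and 0.27 for Tgfa. The part of the transcript mix in the ratios was not tested. With these limits, 8 members were set against Egfr on log2 (TPM + 0.1). The ratio of Areg to Egfr was -2.48, -4.51, -2.35 and -2.73 in KPC and -1.08, -1.37, -1.37 and -1.10 in KPC-OG. All KPC-OG libraries were above all KPC libraries, a difference of 1.79. The exact two-sided permutation test gave p = 0.0286, the smallest that 4 against 4 libraries allow, and an adjusted p = 0.229 over the 8 ratios. The difference was 0.99 for Hbegf, 0.55 for Btc, 0.36 for Erbb2, -0.05 for Erbb3, -0.46 for Tgfa and -0.58 for Erbb4, and the groups overlapped for each of these. None of the 8 ratios passed after adjustment, Ereg among them with a difference of 0.58 that depends on the pseudocount.

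The members were also set against the summed TPM of the 13 duct and lesion epithelium markers, as a level per epithelial marker RNA. Relative to these markers, Egfr, Erbb2, Erbb3 and Tgfa were at lower ratios in KPC-OG than in KPC in every library, by differences of -1.10, -0.74, -1.15 and -1.56 on the log2 scale. Each of these had an exact permutation p = 0.0286 and an adjusted p = 0.0643 over 9 ratios, so none passed. Areg alone had a positive difference, 0.69, with overlapping groups and an exact permutation adjusted p = 0.225. Hbegf (-0.11), Btc (-0.55) and Erbb4 (-1.68) overlapped between the groups. The sum is led by few genes: Tff1, a secreted trefoil peptide of mucous lesions, made up at most 22.0% of it in KPC and at least 39.4% in KPC-OG. Muc1 made up 18.4% to 25.5% in KPC and 3.46% to 6.27% in KPC-OG, and Spp1 22.2% to 29.6% and 18.9% to 25.9%. The make-up of the sum thus differed between the groups, and which cells held the Spp1 RNA was not tested. With a pseudocount of 1 TPM, 8 ratios passed as lower and the Areg difference turned to -0.51, and against Epcam alone, a general epithelial marker, none passed.

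**Figure D4:**
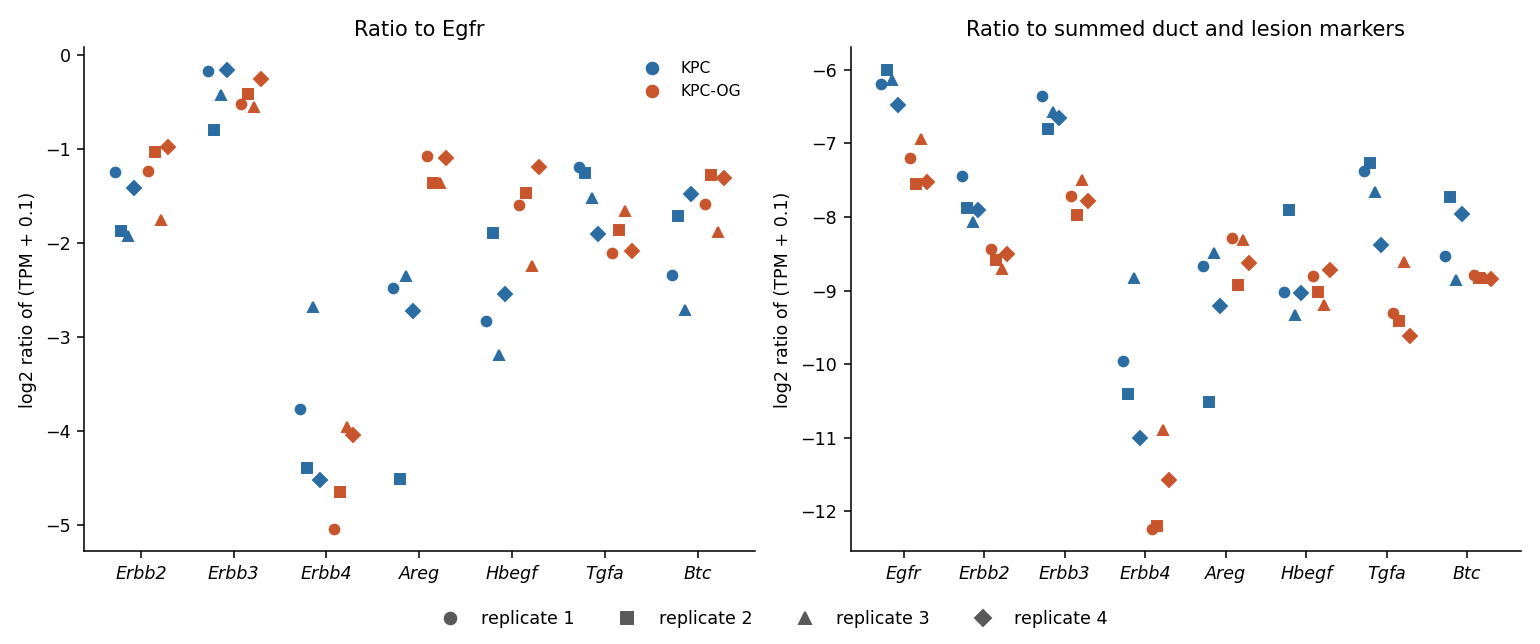
Log2 ratio of (TPM + 0.1) of each member to Egfr (left) and to the summed duct and lesion epithelium markers (right) in every library, KPC in blue and KPC-OG in orange. Only Areg has separate groups on the left, with KPC-OG above (difference 1.79), and Egfr, Erbb2, Erbb3 and Tgfa have separate groups on the right, with KPC-OG below.

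At the transcript level, the index holds 1 transcript each for Erbb3 and the 6 ligands and several for the other receptors. Egfr-201, the 10208-base full-length coding transcript, and Egfr-202, a coding transcript of 2943 bases, held 45.7% and 45.8% of the mean Egfr TPM in KPC and 32.7% and 30.9% in KPC-OG. The short non-coding Egfr-205 held 22.2% of the Egfr TPM in KPC 3 and nothing in the other KPC libraries, and 13.3% to 30.5% in KPC-OG, where it had 120.3 estimated reads against 4213.2 for Egfr-201. Most Erbb2 TPM lay in Erbb2-202, a 4431-base transcript annotated as processed and not coding, with 70.2% of the mean in KPC and 61.1% in KPC-OG, ahead of the coding Erbb2-201 with 29.8% and 35.7%. Reads shared by overlapping transcripts are divided by estimation, so these shares are less certain than the gene sums.

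The genes Epgn, Ereg, Areg and Btc lie in this order within 375531 bases of chromosome 5 (GRCm38, GENCODE M21). Epgn spans 91027464 to 91035215, Ereg 91074622 to 91093646, Areg 91139599 to 91148432, all on the plus strand, and Btc 91357261 to 91402994 on the minus strand. The 4 neighbours were at quite different levels. Epgn had no reads, and Areg and Btc rose. Ereg, which failed the filter, was near the detection limit in KPC (4.3 estimated reads) and at a mean of 1.45 CPM in KPC-OG, with separate groups. The annotated genes on either side that the files list, Mthfd2l and Parm1, did not pass the test (log2 fold changes -0.02 ± 0.36 and -0.44 ± 0.19, adjusted p = 0.966 and 0.0974, edgeR quasi-likelihood); they were picked for their position after the members' values were seen.

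The 250 bases before the annotated start were read from RefSeq (GRCm38.p6) for the 7 members with an entry, Egfr, Erbb2, Erbb4, Areg, Tgfa, Btc and Epgn. Areg is shown as the tested ligand with the largest fold change, Btc as its risen neighbour in the same cluster, and Erbb2 as the receptor with the largest rise. Sequences run 5′ to 3′ on the strand of the gene, at chr5:91139349-91139598 (plus) for Areg, chr5:91402995-91403244 (minus) for Btc and chr11:98412234-98412483 (plus) for Erbb2, and capitals mark the motif matches.
Areg: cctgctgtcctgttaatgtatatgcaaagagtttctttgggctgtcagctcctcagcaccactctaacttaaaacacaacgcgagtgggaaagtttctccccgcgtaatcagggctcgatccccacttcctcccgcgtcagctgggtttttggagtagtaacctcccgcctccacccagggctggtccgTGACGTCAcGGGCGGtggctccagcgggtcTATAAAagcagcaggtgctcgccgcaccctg
Btc: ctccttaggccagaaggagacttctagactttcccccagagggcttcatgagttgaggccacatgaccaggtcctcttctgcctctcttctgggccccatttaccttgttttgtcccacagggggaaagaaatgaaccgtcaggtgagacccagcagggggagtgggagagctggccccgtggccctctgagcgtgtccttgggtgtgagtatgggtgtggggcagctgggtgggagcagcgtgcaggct
Erbb2: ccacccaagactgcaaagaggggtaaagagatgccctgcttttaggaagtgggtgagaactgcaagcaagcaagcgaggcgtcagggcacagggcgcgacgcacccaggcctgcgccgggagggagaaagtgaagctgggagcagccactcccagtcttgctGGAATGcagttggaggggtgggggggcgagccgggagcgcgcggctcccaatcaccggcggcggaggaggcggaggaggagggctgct
The motifs searched, on both strands, were the cAMP response element TGACGTCA, the AP-1 site TGANTCA, the TATA box TATAAA, the TEAD site GGAATG and the GC box GGGCGG. In Areg the cAMP response element lies 61 to 54 bases before the start, the GC box 52 to 47 and the TATA box 31 to 26. The cAMP response element is in 1.55% of 32817 promoter windows of the same length, and Areg was the 1 member of 7 with a match. The TATA box, in 12.4% of all windows, matched in Areg and Epgn, and the GC box, in 32.7%, in Egfr, Areg and Tgfa. The TEAD site, in 12.6%, matched in Erbb2, 88 to 83 bases before the start, and the AP-1 site, in 6.75%, matched in none of the 7. Btc held none of these letters in this window. A match describes the sequence, and the RNA data do not show what binds there.

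Other genes of the pathway were taken from 6 lists of 71 genes, of which 68 were tested. In all, 19 were higher and 18 were lower in KPC-OG, against 17.4% and 16.6% of all tested genes. All directions here are relative to the typical gene: on library sizes alone, or in TPM as deposited, 16 of the 18 lower genes named below had a positive log2 fold change. Of these 16, 14 passed the test on library sizes alone, all but Nrg2 and Myc, and 13 in TPM, all but Nrg2, Sos1 and Myc. Most tested genes were called higher there, 13078 of 14267 on library sizes alone, and 12856 and 12817 in TPM with pseudocounts of 1 and 0.1. The log2 fold changes of Egf and Src stayed negative, that of Src without passing on library sizes alone (-0.36, adjusted p = 0.156, edgeR). Relative to the median gene, 20 of the 31 named calls missed the threshold on library sizes alone, and 8 and 10 in centred TPM with pseudocounts of 1 and 0.1, those of Egf, Adam12, Sos1, Src, Akt1, Akt2, Mtor, Myc, Fos, Ier3 and Dusp6 not among them.

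Ligand genes outside the 10 moved in both directions. Egf, the gene of the founding ligand of the family, was at 144.8, 78.51, 80.14 and 91.01 CPM in KPC and 13.58, 7.98, 32.28 and 7.89 CPM in KPC-OG. All KPC-OG libraries were below all KPC libraries, and KPC-OG 3, with the most acinar marker RNA of its group, was the highest of them. Egf fell 6.48-fold, a log2 fold change of -2.70 ± 0.48 (adjusted p = 0.00383, edgeR quasi-likelihood), while 12 of 14 acinar markers were lower too, with a median log2 fold change of -2.08 over the list, and the part of that in the Egf value was not tested. Nrg4, a neuregulin that binds ERBB4, rose from 0.954 ± 0.292 to 2.88 ± 0.501 CPM, a log2 fold change of 1.60 ± 0.33 (adjusted p = 0.00499, edgeR quasi-likelihood). The KPC level of Nrg4 rests on 19.2 estimated reads, against 348.1 in KPC-OG, and Nrg4 passed the filter on low counts through KPC-OG. In centred TPM with a pseudocount of 1, the Nrg4 value was 0.35 and did not pass (adjusted p = 0.101, limma), nor did it on library sizes relative to the median gene (1.52, adjusted p = 0.0540, edgeR). Nrg2, an ERBB3 and ERBB4 ligand, fell by 1.15 ± 0.37 on the log2 scale (adjusted p = 0.0367, edgeR), a call lost without any 1 of the 8 libraries (adjusted p = 0.0529 to 0.112, edgeR). Nrg1 and Nrg3 had 2.1 and 1.5 estimated reads in KPC and 24.1 and 19.3 in KPC-OG and were not tested.

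Of 10 proteases and regulators that free the ligands, 5 were higher and 2 were lower, with a list median of 0.47 against 0.09 over all tested genes. Adam12, a metalloprotease of stromal cells known to cut HB-EGF, was at 4.78, 4.70, 3.71 and 5.23 CPM in KPC and 16.19, 11.89, 10.61 and 13.81 CPM in KPC-OG. The groups were far apart, and Adam12 rose by 1.50 ± 0.19 on the log2 scale (adjusted p = 7.15e-04, edgeR quasi-likelihood). Adam15 (0.70), Rhbdl2 (1.47), a rhomboid protease, Adam9 (0.52) and Adam8 (0.85) rose as well. Rhbdl2 had 17.2 estimated reads in KPC and 282.8 in KPC-OG, and passed the filter on low counts through KPC-OG. Adam10, the main sheddase of betacellulin and EGF, fell by 0.58 ± 0.17 (adjusted p = 0.0217, edgeR), and Rhbdf1, an inactive rhomboid that guides ADAM17 to the cell surface, fell by 0.58 ± 0.13 (adjusted p = 0.00772, edgeR). Adam17, the main sheddase of amphiregulin, HB-EGF and TGF-alpha, was at 23.3 ± 4.45 and 27.7 ± 2.91 CPM and did not pass (0.25, adjusted p = 0.239, edgeR); it was named for that role after its value was seen. Single omissions ended some calls, those of KPC 1 and 4 and of KPC-OG 1 and 4 for Rhbdl2 (highest adjusted p = 0.0618, edgeR), those of KPC 1 and 4 and of KPC-OG 2 for Adam10 (0.0600), all but those of KPC 1 and KPC-OG 3 for Adam9 (0.0963) and all but those of KPC 2 and KPC-OG 1 for Adam8 (0.113). In centred TPM with a pseudocount of 1, Adam8 was at 0.18 (adjusted p = 0.613, limma), Rhbdl2 at 0.45 (0.121) and Rhbdf1 at -0.39 (0.0597), and on library sizes relative to the median gene these 3, Adam9, Adam10 and Adam15 all missed the threshold.

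Among 15 adaptors and proximal signalling genes, 1 was higher and 5 were lower, with a median of -0.22. Sos1 and Sos2, the exchange factors that load RAS, fell by 0.83 and 0.75 on the log2 scale (adjusted p = 0.00161 and 0.0143, edgeR quasi-likelihood). Pik3r1 and Pik3ca, subunits of PI3-kinase, fell by 0.55 and 0.43, and Vav2, a guanine nucleotide exchange factor, rose by 0.73. Src, a kinase next to the receptors, was at 633.2 ± 43.9 CPM in KPC and 154.2 ± 36.3 CPM in KPC-OG, and fell by 2.04 ± 0.20 (adjusted p = 4.65e-04, edgeR). However, 94.6% of the Src reads in KPC and 74.1% in KPC-OG were assigned to Src-208, a non-coding transcript of 416 bases, so this value is not that of the coding Src mRNA. Single omissions ended the call of Pik3r1, all but those of KPC 2 and KPC-OG 3 (highest adjusted p = 0.0870, edgeR), and that of Pik3ca, all but those of KPC 2, KPC 3 and KPC-OG 3 (0.110). In centred TPM with a pseudocount of 1, Vav2 was at 0.48 (adjusted p = 0.104, limma), Sos2 at -0.49 (0.116) and Pik3r1 at -0.29 (0.166), and on library sizes relative to the median gene these 3 and Pik3ca missed the threshold.

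In the ERK and AKT cascade, 2 of 12 genes were higher and 4 were lower, with a median of -0.17. Akt1 was at 153.0, 130.0, 126.3 and 136.9 CPM in KPC and 76.47, 62.53, 74.32 and 68.59 CPM in KPC-OG. The groups did not overlap, and Akt1, a kinase of the PI3-kinase branch, fell by 0.95 ± 0.13 on the log2 scale (adjusted p = 9.97e-04, edgeR quasi-likelihood). Akt2 and Mtor of the same branch fell by 0.84 and 0.83, and Braf, a kinase of the RAF step, fell by 0.60. In centred TPM the Braf difference all but vanished (-0.06 and -0.07 with pseudocounts of 1 and 0.1, adjusted p = 0.851 and 0.880, limma), and on library sizes relative to the median gene its call was lost (adjusted p = 0.0791, edgeR). Mapk3 (ERK1) rose by 0.58 and Map2k1 (MEK1) by 0.42, a call ended by every single omission but those of KPC 4 and KPC-OG 3 (highest adjusted p = 0.0836, edgeR). Both missed the threshold on library sizes relative to the median gene and in centred TPM with a pseudocount of 0.1 (adjusted p = 0.0532 for Mapk3 and 0.0786 for Map2k1, limma).

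Of 16 genes that restrain or degrade the receptors, 1 was higher and 4 were lower, with a median of 0.17. Lrig1 and Lrig2, transmembrane proteins of a family that lowers receptor levels, fell by 0.60 and 0.54 on the log2 scale (adjusted p = 0.00906 and 0.0184, edgeR quasi-likelihood). Socs5 and Socs4, which promote receptor degradation, fell by 0.66 and 0.47, and Ptpn1, a phosphatase, rose by 0.42. Errfi1, the feedback inhibitor of the EGFR kinase, was at 41.8 ± 16.8 and 54.8 ± 9.68 CPM and did not pass (0.40, adjusted p = 0.264, edgeR); it was named for that role after its value was seen. Single omissions ended the call of Lrig2, those of KPC 4 and KPC-OG 1 (highest adjusted p = 0.0543, edgeR), that of Socs4, all but those of KPC 2, KPC 3 and KPC-OG 3 (0.111), and that of Ptpn1, all but that of KPC 2 (0.101). All 5 calls were lost on library sizes relative to the median gene (adjusted p = 0.107 to 0.518, edgeR) and with KPC-OG 2 and 3 left out together (0.0563 to 0.124).

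The early response genes, which are switched on by ERK signalling among other inputs, were mostly higher, with 9 of 12 tested genes higher, 1 lower and a median of 1.15. Fos, an AP-1 subunit, was at 1.72, 3.38, 3.18 and 3.38 CPM in KPC and 12.24, 12, 7.73 and 20.15 CPM in KPC-OG. All KPC-OG libraries were above all KPC libraries, and Fos rose 4.48-fold (2.16 ± 0.33 on the log2 scale, adjusted p = 0.00142, edgeR quasi-likelihood). Ier3, an early gene linked to survival, rose by 1.96 ± 0.32, and Dusp6, a phosphatase that switches ERK off, rose by 1.22 ± 0.21 (adjusted p = 0.00169 and 0.00198, edgeR). Myc moved the other way, from 16.8 ± 2.30 to 7.11 ± 0.643 CPM, and fell by 1.24 ± 0.15 (adjusted p = 6.24e-04, edgeR). Egr1 did not pass (0.42, adjusted p = 0.469, edgeR), and was named, after its value was seen, because it did not follow Fos. The calls of Fos, Ier3, Dusp6 and Myc held whichever 1 library was left out.

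**Figure D5:**
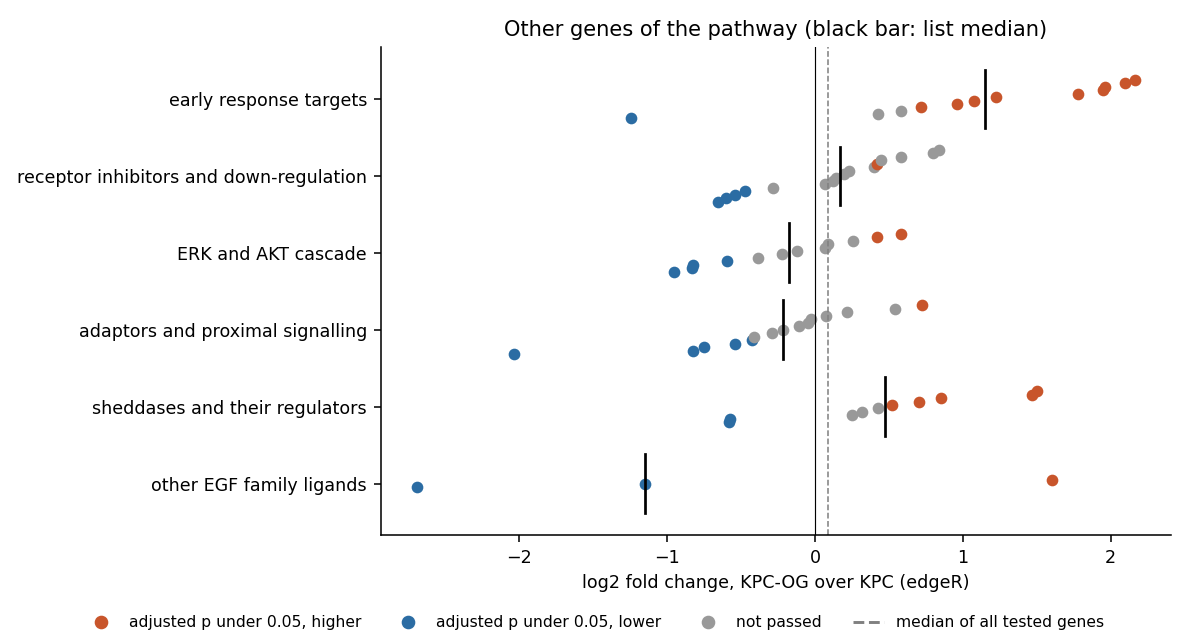
Log2 fold change of KPC-OG over KPC (horizontal axis, edgeR) of each tested gene in 6 lists of other pathway genes, coloured by direction where the adjusted p was under 0.05 and grey otherwise, with a black bar at each list's median and a dashed line at the median of all tested genes. The early response genes lie mostly to the right (median 1.15), and the adaptor and cascade lists lie slightly to the left (medians -0.22 and -0.17).

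For each member with enough reads, the genes whose log2 CPM followed it most closely over the 8 libraries were sought among 12708 genes, by the root mean square difference after centring each gene on its own mean. Areg was closest to Misp, an actin-binding protein of the mitotic spindle, at 0.18, and Gipc2 at 0.25, where the median over all genes was 1.16. Hbegf was closest to Il34 (0.15), a ligand of the macrophage receptor CSF1R, and Adgra2 (0.16), with a median of 0.95. Btc was closest to Tmem79 and Cdc42ep2 (both 0.10, median 0.79), and Erbb2 to Cystm1 and Lipt2 (both 0.12, median 0.71). Erbb3 was closest to Ttc9 (0.09) and Trappc4 (0.10), with a median of 0.55. Egfr was closest to Slc39a1 (0.07), a zinc transporter, and Csrp1 (0.08), and Tgfa to Pmm2 (0.08) and Ptcd1 (0.10), with medians of 0.42 and 0.44. Erbb4, with few reads, was closest to Asic1 and Zfp451 (both 0.21, median 0.62). These are descriptions over 8 libraries that share their grouping, depth and cell make-up.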

How the data were processed

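Total RNA of 8 pancreas samples (4 KPC, 4 KPC-OG, grouped by their titles) was sequenced after ribosomal depletion. Sailfish 0.6.3 (k-mers of 20 bases, 1000 iterations, index of Ensembl release 76) made the authors' bias-corrected values, per the file headers. The deposited estimated counts are numbers of reads per transcript, and the deposited TPM values are abundances scaled within each library. Tools listed without a role in the submitters' processing notes are STAR 2.0.4b, bcl2fastq, limma and edgeR. Of 86127 transcripts, 83827 matched GENCODE M21 (GRCm38), and the 2300 others, with 1.45% to 4.23% of reads, were left out. Estimated counts were summed over 29621 genes and rounded. One allele common to both groups and 1 gene of the ERK and AKT list are not reported here.

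The test was edgeR 4.0.16 quasi-likelihood (robust, TMM, filterByExpr, no block) in R 4.3.3 on all 8 libraries, with Benjamini-Hochberg adjustment over 14267 genes, a threshold of 0.05, and standard errors from the F statistic. The script was tested on simulated data. Ratios and marker sums in TPM were compared by exact two-sided permutation of 70 arrangements. With a pseudocount of 0.1 TPM, 15 of 17 marker sums and library measures had separate groups (exact permutation p = 0.0286, adjusted p = 0.0324). TPM is not TMM-scaled, and 12817 of 14267 tested genes were called higher in KPC-OG in TPM with that pseudocount. A higher marker sum in TPM therefore does not by itself mark a change of cell type. The lymphocyte and the nerve and Schwann cell markers overlapped. In TMM-scaled CPM the neutrophil, lymphocyte, endothelial, islet and mesothelium sums overlapped, and mast cell and nerve sums were lower in KPC-OG. Libraries of a group differed by more than counting noise (the lowest chi-square divided by its degrees of freedom was 14.1), so none was counted as a duplicate. Lars2 took 20.8% to 30.0% of the reads of a KPC library and 3.73% to 7.12% of those of a KPC-OG library.

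All members were named, and from each pathway list up to 4 passing genes with the smallest adjusted p and every passing gene of a direction with 5 or fewer. Members, lists and the rule were chosen with earlier results of these data known. Alternatives covered the scaling, tool, filter, unit, pseudocount, single libraries, a replicate block and removal of Lars2, and, chosen after seeing the data, centred TPM, leaving out KPC-OG 2 and KPC-OG 3 together, and Epcam as a reference.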

Additional observations from a re-analysis of the deposited data

Results flagged for a closer look

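Of 106 groups of 4 libraries examined, 8 held 1 library far from the other 3, and chance alone gives about 1 in 20. Among the members, Erbb2 was at 11.98 CPM in KPC-OG 3 against 21.92 to 23.73 CPM in the rest of its group, and Ereg at 0.675 CPM in KPC 4 against 0 in the rest. KPC-OG 3 also stood above its group for Pik3r1 (76.28 CPM, others 51.77 to 55.27), Mtor (28.48 CPM, others 19.8 to 21.11) and the summed neutrophil markers (34.05 CPM, others 17.56 to 19.62). Lrig2 was low in KPC-OG 1 (7.641 CPM, others 8.782 to 8.84). Fos was low in KPC 1 (1.719 CPM, others 3.184 to 3.381). The summed mast cell markers were high in KPC 3 (24.15 CPM, others 22.73 to 22.8).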

How the results depend on the processing

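The 5 member calls were made with median-ratio size factors, DESeq2, limma-voom, the replicate block and without Lars2. Members called higher numbered 8 on library sizes alone and in TPM with either pseudocount, and 3 on library sizes relative to the median gene. Of all 14267 tested genes, 13078 were called higher on library sizes alone, and 12856 and 12817 in TPM with pseudocounts of 1 and 0.1. Relative to the median gene, 917 were. In TPM with a pseudocount of 1 centred on the median, 1 member, Erbb4 (-0.74), was called lower, as were 3787 of all tested genes. Pathway genes called higher numbered 64 on library sizes alone, 63 and 63 in TPM, 7 relative to the median gene, 11 in centred TPM with a pseudocount of 0.1, and 12 to 21 without single libraries, and those called lower 1, 2, 2, 7 and, with KPC-OG 2 and 3 left out together, 9. Over all tested genes, 1811 were called higher in centred TPM with a pseudocount of 0.1, and 1689 to 2880 without single libraries. Those called lower numbered 99, 121, 120 and 1400 in the same order and, with KPC-OG 2 and 3 left out together, 1813.

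Erbb4 changed sign on library sizes alone (1.70), with limma-voom (0.0922), in TPM with pseudocounts of 1 and 0.1 (0.69 and 1.70), with KPC-OG 2 and 3 left out together (0.0476), in centred TPM with a pseudocount of 0.1 (0.0193), and within -0.36 to 0.34 without single libraries. On library sizes alone, and in TPM with pseudocounts of 1 and 0.1, the log2 fold changes turned to 0.56, 0.12 and 0.31 for Nrg2, 1.16, 1.05 and 1.11 for Rhbdf1, 1.17, 0.87 and 0.92 for Adam10, 0.93, 0.54 and 0.74 for Sos1, 0.99, 0.94 and 1.04 for Sos2, 1.16, 1.14 and 1.19 for Pik3r1, 1.31, 0.99 and 1.16 for Pik3ca, 0.78, 0.73 and 0.74 for Akt1, 0.88, 0.67 and 0.78 for Mtor, 0.86, 0.85 and 0.87 for Akt2, 1.13, 1.37 and 1.61 for Braf, 1.15, 1.01 and 1.10 for Lrig1, 1.08, 0.75 and 0.90 for Socs5, 1.21, 0.71 and 1.01 for Lrig2, 1.25, 0.82 and 1.09 for Socs4, and 0.46, 0.45 and 0.50 for Myc. These settings leave out the composition scaling, which moves the median gene by 1.74, 1.23 and 1.60, and no named pathway gene changed sign in the other settings.

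The ratio differences ran from -0.19 to 0.0261 for Erbb3 to Egfr and from -0.28 to 0.194 for Hbegf to the duct markers without single libraries. The latter was 0.145 against Epcam. With a pseudocount of 1, Ereg to Egfr was -1.25, Areg to the duct markers -0.51, and 8 ratios to the duct markers passed as lower. Only the pseudocount differed here. It weighs more where TPM is low, and the mean TPM of each member with reads was lower in KPC.

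Libraries of the same number correlated at 0.058 to 0.295 in their deviations from the group means, and others at -0.33 to 0.211. Of 8 libraries, 6 correlated best with their own number, and whether the numbers pair samples was not tested. The labels do not say that they do, so the main test used no block. The replicate block gave 5 members and 21 pathway genes higher and 16 lower, and lost the Nrg2 and Socs4 calls. Depth limits Ereg, Areg, Hbegf and Erbb4 in KPC, with 4.3, 18.6, 47.6 and 48.9 estimated reads.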
